A study of Mus musculus
Mus spretus with 18 samples.

Results

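The genes described here are 10 genes of the DNA methylation machinery, Dnmt1, Uhrf1, Dnmt3a, Dnmt3b, Dnmt3l, Tet1, Tet2, Tet3, Mbd1 and Mbd2. They were chosen by gene symbol, 10 of the 38924 genes in the expression table, and they account for 124 of the 124450 skipped exon (SE) events in the splicing tables. RNA sequencing (RNA-seq) libraries were made from F1 hybrids between the laboratory strain C57BL/6J and the wild-derived strain SPRET/EiJ (Mus spretus). All groups share this hybrid genome. Cerebral cortex, heart, kidney, lung, spleen and liver came from mice aged 8 weeks, with 2 replicates per organ. The study took its organs from 2 animals, so the organs are not independent of each other. Embryonic stem cells (ESC) were kept in N2B27 medium with 2i and LIF, and their 2 replicates were separate clones. F1 fibroblasts were treated for 4 h with 0.1 µM pladienolide B, an inhibitor of the splicing factor SF3B, or with the solvent DMSO, 2 replicates each. Nothing in the labels says that the fibroblast replicates are separate cultures, so p-values there measure the spread between these libraries, which may be technical.

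In mammals, Dnmt1 copies the methylation of cytosines in CpG dinucleotides onto the new DNA strand at replication, and Uhrf1 recruits it to DNA that carries methyl groups on a single strand. Dnmt3a and Dnmt3b methylate DNA de novo with the help of the inactive cofactor Dnmt3l, and the Tet enzymes oxidise the methyl group, the first step towards its removal. Mbd1 and Mbd2 bind methylated CpG dinucleotides and repress transcription. Cells that divide need the maintenance pair at every S phase.

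Expression was given in TPM, the number of transcripts of a gene relative to a fixed total of transcripts, a length-normalised unit that allows levels of different genes to be compared. Splicing was given as percent spliced in (PSI, from 0 to 1), the share of transcripts that include an exon, from reads over splice junctions. Between 46558287 and 151755602 junction reads were counted per library, of which 10603054 to 48555783 were assigned to the C57BL/6J allele and 10338947 to 43070354 to the SPRET/EiJ allele. All marker genes of ESC and of the 6 organs were highest in their own group. Of 5 fibroblast markers, 3 were highest in fibroblasts, whereas Col3a1 was highest in lung and Thy1 in cortex. Summed TPM of 8 ESC markers was 9876 and 9751 in ESC and at most 60.7 in any organ library. The ESC libraries stood apart from each other: for the 10 genes, the ratio of the higher to the lower ESC replicate ran from 1.07 to 2.74, against 1.01 to 1.79 in the other groups where the mean TPM was at least 1. In these bulk samples, fewer cells of a type and less RNA per cell cannot be told apart.

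The first question was how the levels of these genes differ between ESC and adult organs. Both maintenance genes, Dnmt3b, Dnmt3l, Tet1 and Tet2 were higher in ESC, Mbd2 and Tet3 were lower, and Dnmt3a and Mbd1 were not called against the mean of the 6 organs. A gene was called at an adjusted p under 0.05 and a difference of at least 1 in log2(TPM + 0.1), a scale that understates the change of low genes. Thus 6 of the 10 genes were called higher and 2 lower, where 34.9% of all 19806 genes tested were called higher and 25.4% lower. The median difference was 3.68 for the 10 genes and 0.31 for all genes.

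**Figure D1:**
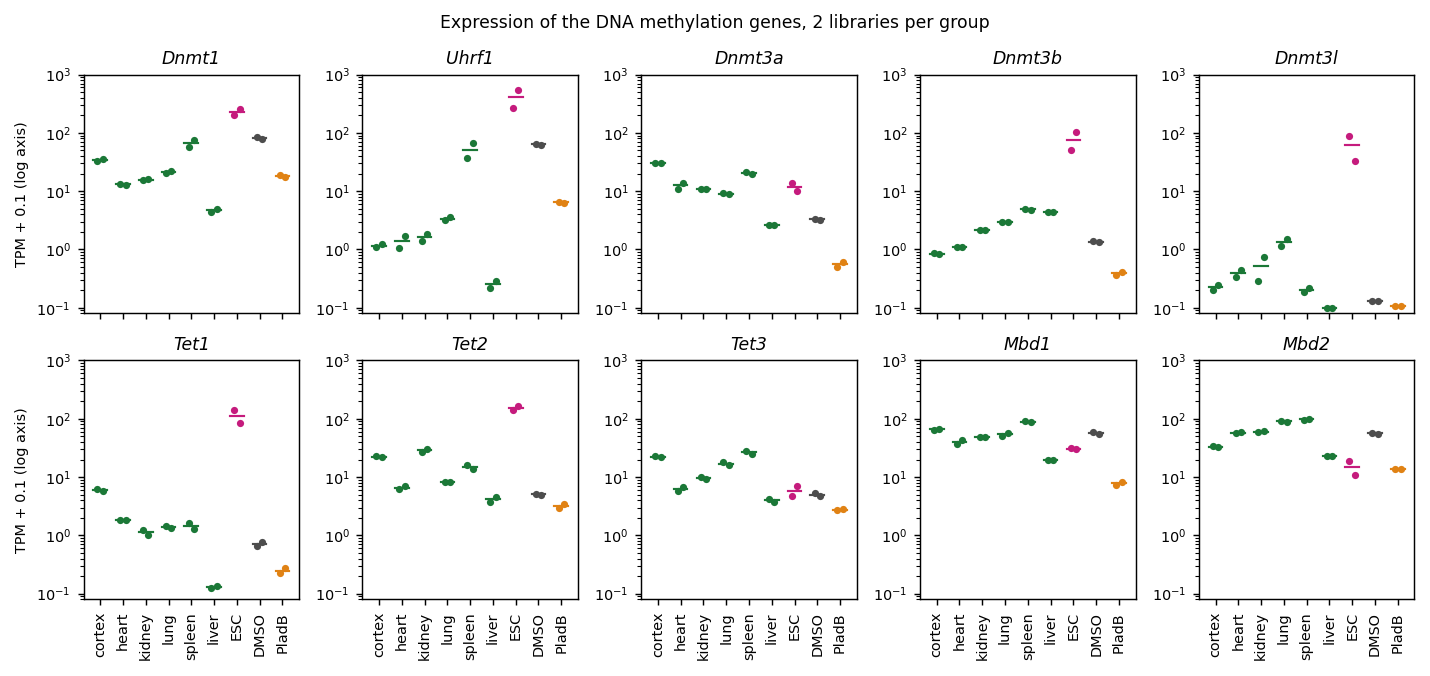
TPM + 0.1 of the 10 genes on a log axis in 9 groups; each point is 1 library and each bar the mean of 2 replicates. Dnmt1, Uhrf1, Dnmt3b, Dnmt3l, Tet1 and Tet2 are highest in ESC, with both ESC libraries above every other library, whereas Dnmt3a is highest in cortex and Tet3, Mbd1 and Mbd2 in spleen.

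Of the maintenance pair, Uhrf1, the ubiquitin ligase that reads hemimethylated DNA, had a TPM of 271 and 539 in the ESC replicates. It reached 36.6 and 65.7 in spleen, 3.04 and 3.46 in lung, and between 0.114 and 1.71 in the libraries of cortex, heart, kidney and liver. No ESC library overlapped an organ library, and spleen stood above the other organs. The difference from the organ mean was 7.47 ± 0.29 (SE; adjusted p = 6.09e-09, limma). Dnmt1, the maintenance methyltransferase, was less uneven, with 200 and 261 TPM in ESC, 57.2 and 75.3 in spleen, 33 and 35.2 in cortex, 20.2 and 21.7 in lung, and 4.31 and 4.89 in liver. Heart and kidney lay between lung and liver, with means of 13 and 15.7. The order ESC, spleen, cortex, lung, kidney, heart, liver had no overlap between neighbours, and the difference from the organ mean was 3.60 ± 0.12 (adjusted p = 1.97e-09).

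Among the tissues, the summed level of genes of DNA replication and cell division was also highest in ESC, followed by spleen. Of 16 such genes, all 16 were called higher in ESC against the organ mean (median difference 5.06) and 13 of 16 against spleen (median 1.57). Their summed TPM was 2335 and 4021 in ESC, 741 and 1436 in spleen and 42 to 191 in the other organs. Unlike Dnmt1, the sum was lower in cortex (89 and 87.1) than in lung (179 and 191) and kidney (98.3 and 116). In both ESC and spleen the replicate with the higher sum also had the higher Uhrf1. The part of these 16 genes in the Uhrf1 and Dnmt1 differences was not tested.

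Among the de novo genes, Dnmt3b had a TPM of 50.5 and 102 in ESC and between 0.722 and 4.88 in all 12 organ libraries, highest in spleen (mean 4.8) and liver (4.32) and lowest in cortex (0.743). The difference from the organ mean was 5.00 ± 0.20 (adjusted p = 7.67e-09). Dnmt3l, the cofactor without catalytic activity, was nearly restricted to ESC, with 89.5 and 32.7. It reached 1.03 and 1.41 in lung, 0.183 and 0.654 in kidney, and at most 0.345 in the other organs; in liver it was listed at 0 in both libraries. Its difference of 7.41 ± 0.39 (adjusted p = 4.88e-08) therefore depends on the pseudocount of 0.1. Dnmt3b was higher in the second ESC clone and Dnmt3l in the first.

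Dnmt3a followed another order. It was highest in cortex, with 30.6 and 30, followed by spleen with 21.1 and 19.3, and had 13.5 and 9.77 in ESC, a range that overlapped heart (11 and 13.8) and kidney (10.9 and 10.6). Liver was lowest of the tissues, with 2.52 and 2.54. Accordingly, ESC differed from the organ mean by only 0.05 ± 0.12 (adjusted p = 0.72), but lay below cortex (-1.39 ± 0.16, adjusted p = 1.61e-05) and above liver (2.14 ± 0.16, adjusted p = 4.03e-07). In ESC, mean TPM was 6.58 times as high for Dnmt3b as for Dnmt3a, whereas in cortex Dnmt3a was the higher by 40.8 times; only in liver among the organs was Dnmt3b the higher, by 1.71 times.

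The 3 Tet genes each had their own order. Tet1 had 139 and 85.1 TPM in ESC, 6.23 and 5.63 in cortex, 0.933 to 1.75 in heart, kidney, lung and spleen, and 0.0234 and 0.0345 in liver. The difference of Tet1 from the organ mean was 6.48 ± 0.18 (adjusted p = 9.07e-10). Tet2 had 141 and 165 in ESC, 26.8 and 30.4 in kidney, and 22.6 and 21.9 in cortex, and in ESC its clones lay close together. Its difference was 3.75 ± 0.10 (adjusted p = 6.4e-10). Tet3 ran the other way, with 28.1 and 24.6 in spleen, 22.6 and 22.3 in cortex and 17.9 and 15.7 in lung, against 4.61 and 6.92 in ESC, which overlapped heart (5.57 and 6.66). Its difference of -1.01 ± 0.14 (adjusted p = 7.58e-05) lay at the limit for a call, and without the first ESC replicate it was -0.72 and was not called. In ESC the Tet transcripts were thus mostly Tet1 and Tet2, and in spleen and lung Tet3 was the highest of the family.

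Of the readers of methylated DNA, Mbd2 was lower in ESC, with 18.6 and 10.7 against 22.5 to 97.9 in the organ libraries. All ESC values lay below all organ values, and the difference was -1.91 ± 0.15 (adjusted p = 9.04e-07). Mbd1 had 31.8 and 29.8 in ESC, below every organ library except those of liver (19.6 and 19.8), and 89.9 and 88.5 in spleen. Its difference of -0.64 ± 0.07 (adjusted p = 1.1e-05) was too small for a call from TPM as deposited, whereas after quantile normalisation it was -1.16 and was called.

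Against single organs, which share the ESC libraries, Dnmt1, Uhrf1, Dnmt3b, Dnmt3l, Tet1 and Tet2 were called higher in ESC in each of the 6 comparisons, and Dnmt3a against liver. The share of all genes called higher was 27.3% against cortex, 44.4% against heart, 34% against kidney, 31.4% against lung, 30.1% against spleen and 59.4% against liver. The smallest of these differences was that of Dnmt1 against spleen, at 1.80 ± 0.15, and Uhrf1 differed from spleen by 2.96 ± 0.38. Mbd2 was called lower against every organ except liver. Tet3 was called lower against cortex, lung and spleen, Mbd1 against cortex and spleen, and Dnmt3a against cortex. The share of all genes called lower was 33.1% against cortex, 20.4% against heart, 25.7% against kidney, 29.8% against lung, 24.5% against spleen and 13.6% against liver. The median of all genes was 1.57 against liver and 0.76 against heart. After quantile normalisation, 6317 genes were higher and 5176 lower against liver, in place of 11762 and 2693, and 6069 higher and 5580 lower against heart, in place of 8803 and 4041. With that scaling, Dnmt3a was no longer called against liver (0.38), whereas Mbd2 (-1.92) and Tet3 (-1.04) were called lower against it. Mbd1 was then also called lower against heart (-1.11), kidney (-1.07) and lung (-1.07).

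**Figure D2:**
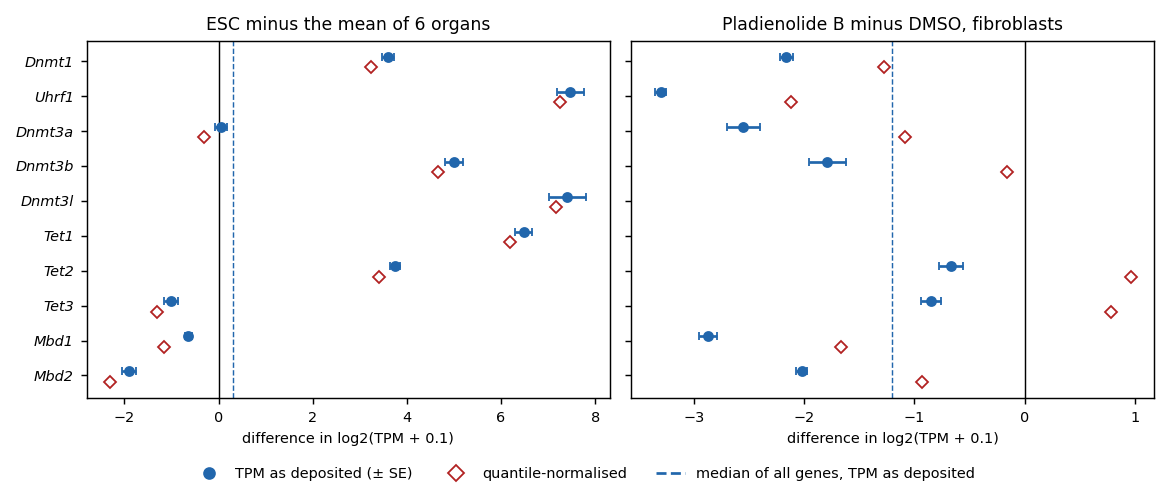
Differences in log2(TPM + 0.1) of the 10 genes for ESC minus the mean of 6 organs (left) and pladienolide B minus DMSO in fibroblasts (right); circles with SE bars are from TPM as deposited, open diamonds from quantile-normalised values, and the dashed line is the median of all genes. On the left the genes run from -1.91 (Mbd2) to 7.47 (Uhrf1), and quantile normalisation moves Mbd1 from -0.64 to -1.16 and Dnmt3a from 0.05 to -0.32; on the right all 8 genes tested lie below 0, with Tet2 at 0.96 and Tet3 at 0.78 after quantile normalisation.

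Beyond the 10 genes, a list of 36 further genes tied to DNA methylation was counted, 33 of them autosomal and tested. Against the organ mean, 16 were called higher in ESC and 3 lower, with a median of 0.97, beside 34.9% higher, 25.4% lower and a median of 0.31 over all genes. The highest was Dppa3, a maternal factor of the early embryo (11.11 ± 0.36). It had 232 and 438 TPM in ESC and at most 0.175 in any organ library. Next came Zfp57, a zinc finger protein that keeps imprints methylated (6.78 ± 0.12), and Hells, a chromatin remodeller needed for methylation (6.44 ± 0.24). Cdca7, the partner of Hells, was higher by 4.62 ± 0.21. The 3 lower genes were Zbtb4, a reader of methylated DNA (-3.24 ± 0.19), Cxxc4 (-2.46 ± 0.16) and Gadd45g (-1.81 ± 0.51). Gadd45g had 29.3 and 4.31 in the ESC clones and Gadd45a 230 and 19.2, so both rest on widely spread replicates.

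Over the 9 group means, the genes most like each member were also listed, by Pearson's r of log2(TPM + 0.1) among 19952 genes, as a description over points that include both fibroblast treatments. They were Tonsl and Mre11a for Dnmt1 (r = 0.992 and 0.990), 2 genes of replication-fork and break repair, Eif3d and Aaas for Uhrf1 (0.993 and 0.989), and Akap8l and Setd1b for Dnmt3a (0.975 and 0.969). For Dnmt3b they were Gm14490 and Mov10 (0.970 and 0.956), for Dnmt3l Gm13580 and Nlrp5-ps (both 0.984), for Tet1 9030624G23Rik and Ceacam18 (0.980 and 0.970) and for Tet2 Zbtb43 and Cnpy1 (0.971 and 0.970). For Tet3 they were Amz1 and Fam173a (0.981 and 0.978), for Mbd1 Klhl18 and Rxrb (0.987 and 0.986) and for Mbd2 Filip1l and 5430435G22Rik (0.976 and 0.966).

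Exons of the 10 genes. An SE event is an exon together with the exons that flank it in both forms. The 124 events covered 88 exons, and 116 events (85 exons) had at least 20 reads in both replicates of some group. Of these 116 events, 102 had a mean PSI of at least 0.9 in every such group and 3 of at most 0.1, so most exons were nearly always included. The same share over all SE events was not counted, so whether this is particular to the 10 genes is not known. ESC held the most, with 77 events, followed by DMSO fibroblasts with 44, spleen and pladienolide B fibroblasts with 35 each, cortex with 24, kidney with 21, lung with 20, and heart and liver with 10 each.

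Of 59 events with reads in at least 2 groups, the group means spanned 0.1 PSI or more in 8. They belonged to Dnmt3b (4), Mbd1 (2), Tet1 (1) and Tet3 (1), and the share over all SE events was not counted. None of the 14 Dnmt1, 10 Uhrf1, 7 Dnmt3a, 4 Tet2 and 5 Mbd2 events spanned that much. All 20 Dnmt1 events were included at a PSI of at least 0.9 in every group. The lowest value of a Dnmt1 exon in any library was 0.972, at a 37-bp exon in kidney. Dnmt3a and Tet2 likewise had no event below 0.9 in a group mean; the lowest single values were 0.926 in a heart library (Dnmt3a, 108 bp) and 0.963 in a spleen library (Tet2, 151 bp). Of Mbd2, an exon of 124 bp was an exception in the other direction, since it was skipped almost throughout, with a PSI from 0.00257 to 0.0562. It was highest in cortex, with 0.0478 and 0.0562 from 1150 and 1080 reads. Dnmt3l had a single event with reads, in lung.

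**Figure D3:**
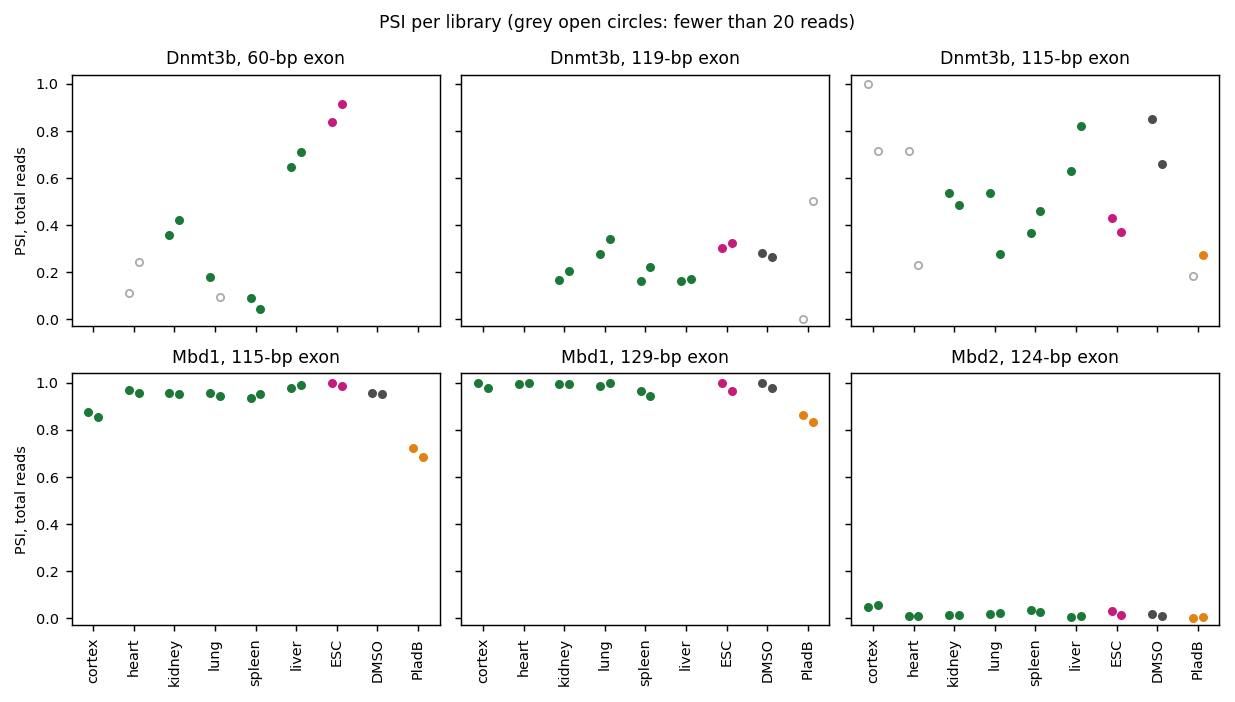
PSI from total reads of 6 exons of Dnmt3b, Mbd1 and Mbd2, 1 point per library; coloured points have at least 20 reads and grey open circles fewer. The Dnmt3b 60-bp exon runs from 0.0437 in spleen to 0.915 in ESC, the Mbd1 115-bp exon is lower in cortex and lowest after pladienolide B, and the Mbd2 124-bp exon is skipped in all groups.

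In tests of ESC against each organ, 1 of 13 member events was called against cortex, 0 of 6 against heart, 0 of 14 against kidney, 0 of 11 against lung, 1 of 22 against spleen and 0 of 10 against liver, at an adjusted p under 0.05 and a |ΔPSI| of at least 0.1. Of all events tested, 7.25% were called against cortex, 5.32% against heart, 1.6% against kidney, 2.01% against lung, 2.16% against spleen and 1.66% against liver, and 1 called event each is too few to set the 10 genes apart from these shares. The median |ΔPSI| of the member events was 0.004 to 0.012 in the 6 comparisons. At an unadjusted p under 0.05 there were 2 member events against kidney, 2 against liver, 1 against lung and 0 against heart, the organs with 0 calls. The share of all events at that level was not counted.

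Dnmt3b carried the largest difference. Its 60-bp exon (mm10, chr2:153670849-153670908, plus strand), whose length is a multiple of 3, is skipped in a known form of the enzyme with a shorter linker before the catalytic domain. It was included at a PSI of 0.837 and 0.915 in ESC (816 and 1931 reads), 0.649 and 0.710 in liver, 0.359 and 0.421 in kidney, and 0.0909 and 0.0437 in spleen (33 and 53 reads). In lung it was 0.179 and 0.095, the latter from 19 reads. The groups did not overlap, so that ESC, liver, kidney and spleen fell in this order. Between ESC and spleen, ΔPSI was 0.809 (adjusted p = 0.00315), a call lost without the second spleen replicate (ΔPSI 0.785, adjusted p = 0.13). Against kidney and liver, ΔPSI was 0.486 (adjusted p = 0.297) and 0.196 (adjusted p = 0.54), neither past the threshold. Thus spleen, the organ with the most Dnmt3b transcript, included this exon least, and liver, with nearly as much transcript (4.32 against 4.8 TPM), included it in most transcripts.

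Near the 3′ end of Dnmt3b, a 70-bp and a 119-bp exon together hold 189 bp, a multiple of 3, and a form that lacks both is known to have lost part of the catalytic domain. The event of the 119-bp exon (chr2:153684359-153684477) counts as skipped the reads that join the exon before both of them directly to the last exon. Its PSI was 0.304 and 0.324 in ESC (521 and 1227 reads), 0.276 and 0.343 in lung, 0.28 and 0.264 in DMSO fibroblasts, 0.162 and 0.224 in spleen, 0.169 and 0.206 in kidney, and 0.161 and 0.171 in liver. It was at most 0.343 in every library with at least 20 reads. Reads that carry the 70-bp exon support inclusion in this event by 1 junction only, so that the PSI is not the share of the full form. ESC exceeded liver by 0.148 (adjusted p = 0.289), which was not past the threshold.

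At the 5′ end of Dnmt3b, a 115-bp exon (chr2:153650785-153650899) varied as well. Its PSI was 0.43 and 0.372 in ESC, 0.535 and 0.486 in kidney, 0.538 and 0.277 in lung, 0.366 and 0.46 in spleen, 0.63 and 0.82 in liver and 0.85 and 0.66 in DMSO fibroblasts, with 22 to 81 reads per library outside ESC. The difference between ESC and liver was -0.324 (adjusted p = 0.208). The next exon that varied, of 62 bp, was included at 0.991 and 0.978 in ESC and at 0.827 and 0.918 in spleen (ΔPSI 0.112, adjusted p = 0.552).

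Mbd1 held the other call. Its 115-bp exon (chr18:74273209-74273323, plus strand; not a multiple of 3) had a PSI of 1.00 and 0.987 in ESC and 0.875 and 0.856 in cortex, from 606 to 1336 reads. The other organs ran from 0.935 in spleen to 0.99 in liver, where 1 library lay above the lower ESC library, and cortex had the lowest inclusion of all tissues without overlap. ΔPSI between ESC and cortex was 0.128 (adjusted p = 0.014), and without the second cortex replicate it was 0.118 (adjusted p = 0.0502). In cortex, a further form of Mbd1 was listed, in which the 129-bp exon is joined to a different downstream exon; its PSI there was 0.562 and 0.524.

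Tet1 and Tet3 had 1 variable exon each. The Tet1 exon of 91 bp had a PSI of 0.974 and 0.958 in ESC (3693 and 2135 reads) and of 0.95 and 0.733 in cortex (78 reads each), a difference of 0.124 (adjusted p = 0.357) that rests on the second cortex replicate: without it, ΔPSI was 0.016. The Tet3 exon of 91 bp is described with the fibroblasts. In Uhrf1, a 107-bp exon was listed in ESC alone and its clones differed, with 0.424 from 47 reads and 0.986 from 140; it was chosen after its values were seen.

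The comparison of pladienolide B with DMSO asks how an inhibitor of the core splicing machinery changes the transcripts and exons of these genes. All 8 of the genes that passed the filter on low TPM had lower TPM after pladienolide B and were called at an adjusted p under 0.05 and an absolute log2 difference of at least 0.5, where 67.2% of all 12584 genes were called lower and 8.15% higher. Dnmt3l and Tet1 did not pass the filter, with at most 0.0319 and 0.66 TPM. The median of all genes was -1.21, so each difference has to be read against it.

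Uhrf1 fell most, from 65 and 62.8 TPM in DMSO to 6.52 and 6.26 (difference -3.30 ± 0.05, adjusted p = 1.84e-06). Mbd1 fell from 59 and 54.2 to 7.17 and 8.15 (-2.87 ± 0.08), Dnmt3a from 3.28 and 3.06 to 0.41 and 0.514 (-2.55 ± 0.15), Dnmt1 from 86 and 78.4 to 18.9 and 17.7 (-2.16 ± 0.06), and Mbd2 from 56.5 and 55.4 to 13.5 and 13.9 (-2.02 ± 0.05). These 5 lay below the median of all genes and were also lower after quantile normalisation, at -2.12, -1.67, -1.09, -1.28 and -0.93.

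Dnmt3b, at 1.28 and 1.24 TPM in DMSO and 0.269 and 0.317 after the drug, had a difference of -1.79 ± 0.17, and of -0.16 (adjusted p = 0.409) after quantile normalisation. The demethylation genes Tet2 (5.06 and 4.91 to 2.81 and 3.41, -0.67 ± 0.11) and Tet3 (5.17 and 4.61 to 2.61 and 2.73, -0.85 ± 0.09) had smaller differences than the median gene, and their sign turned under that scaling, to 0.96 and 0.78. Over all genes, 1025 were called higher and 8455 lower from TPM as deposited, and 3883 and 4389 after quantile normalisation, so the sign of the Tet2 and Tet3 differences and the call of Dnmt3b depend on the scaling. TPM is a share of all transcripts, and a change in the total cannot be seen in it.

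Of the further list, 30 genes were tested, of which 24 were called lower and 3 higher, beside 67.2% and 8.15% of all genes. Their median was -1.76. The 3 higher genes were the stress-induced Gadd45 family, which has been linked to active demethylation: Gadd45b (from 210 and 202 to 1922 and 2409 TPM; 3.38 ± 0.11), Gadd45g (2.38 ± 0.14) and Gadd45a (2.04 ± 0.12). Of the 16 replication and proliferation genes, 9 were called lower and 0 higher, beside the same shares of all genes. Their median of -0.54 lay above that of all genes. Their summed TPM was 1620 and 1584 with DMSO and 980 and 921 after the drug, and their part in the lower Uhrf1 and Dnmt1 was not tested. The summed fibroblast markers were 2731 and 2643 against 2502 and 2405.

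Of 35 member SE events tested between treatments, 2 were called, both in Mbd1, where 8.68% of all 54535 events were called. The median |ΔPSI| was 0.006 for the member events and 0.008 for all events. At an unadjusted p under 0.05 there were 10 member events. How many of all events passed that level was not counted, so this number does not set the 10 genes apart. Both Mbd1 exons were included less after the drug.

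The 115-bp exon of Mbd1, the one with the lowest inclusion in cortex, had a PSI of 0.956 and 0.952 with DMSO (2182 and 1981 reads) and of 0.723 and 0.685 with pladienolide B (101 and 155 reads). ΔPSI was -0.250 (adjusted p = 6.28e-08), and the values after the drug were the lowest of all 18 libraries. The 129-bp exon of Mbd1, a multiple of 3, had 1.00 and 0.979 with DMSO and 0.863 and 0.834 after the drug, from 38 and 31 reads. Its ΔPSI of -0.141 (adjusted p = 0.041) did not stay past the threshold when the libraries were paired by replicate number (0.0501), nor in 5 other settings (0.0644 to 0.226).

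Outside Mbd1, further exons were included less after the drug without a call, with the largest differences in Tet3 and Uhrf1. The Tet3 91-bp exon was included fully with DMSO (1.00 and 1.00) and at 0.893 and 0.895 after the drug, from 43 and 44 reads (ΔPSI -0.106, adjusted p = 0.103). The Uhrf1 104-bp exon had 1.00 and 1.00 against 0.971 and 0.906 (58 and 69 reads); the adjusted p was 0.0172, but the ΔPSI of -0.062 was under the limit of 0.1. No event of Dnmt3b or Tet2 had 20 reads in each fibroblast library. Retained introns of these genes were not analysed here.

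In an F1 hybrid both alleles meet the same trans-acting factors, so this comparison asks about differences in cis. Over the 7 tissues, 1 member event was called between the C57BL/6J and SPRET/EiJ alleles: 1 of 62 events tested in ESC. None was called in spleen (24 tested), cortex (15), lung (12), kidney (12), liver (7) or heart (6). Of all events, 0.249% were called in ESC, 2.13% in spleen, 2.01% in cortex, 2.08% in lung, 2.04% in kidney, 1.55% in liver and 2.29% in heart. In the organs with 0 calls, 1 member event each in cortex, kidney and spleen and 0 in heart, lung and liver had an unadjusted p under 0.05. No share of all events was counted at that level.

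**Figure D4:**
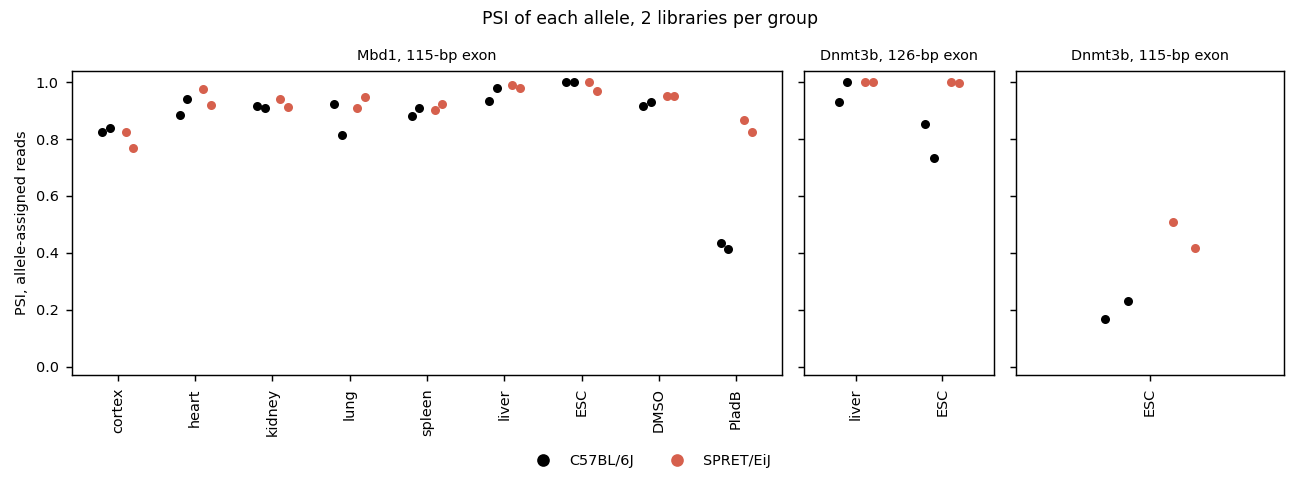
PSI of the C57BL/6J allele (black) and the SPRET/EiJ allele (red) for 3 exons, 2 libraries per group. At the Mbd1 115-bp exon, the C57BL/6J allele minus the SPRET/EiJ allele is between -0.059 and 0.037 in 8 groups and -0.419 after pladienolide B; in ESC it is -0.205 at the Dnmt3b 126-bp exon and -0.264 at the 115-bp exon.

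The event called in ESC was a 126-bp exon of Dnmt3b (chr2:153665252-153665377, plus strand; a multiple of 3). The C57BL/6J allele had a PSI of 0.852 and 0.735 in the 2 clones (502 and 878 reads), and the SPRET/EiJ allele 1.00 and 0.997 (686 and 1849 reads). The difference was -0.205 (adjusted p = 0.0264). Both alleles come from the same clone, and with the library as a block the adjusted p was 5.24e-25. In that fit the spread was taken from all events rather than from this exon. Its p-value therefore does not measure the spread between the 2 clones. Skipping in ESC was thus almost limited to the C57BL/6J allele. In liver, the only organ with enough reads on both alleles, the C57BL/6J allele had 0.929 and 1.00 (27 and 25 reads) and the SPRET/EiJ allele 1.00 and 1.00.

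The difference at the 115-bp exon of Dnmt3b in ESC had the same sign. The C57BL/6J allele had 0.168 and 0.23 (73 and 249 reads) and the SPRET/EiJ allele 0.507 and 0.419 (309 and 782 reads). The difference of -0.264 was not called without the block (adjusted p = 0.528). It was called with the block (0.000148), where the spread again came from all events and not from this exon. In every other group some library had fewer than 20 reads on an allele, and no test was made. There the C57BL/6J allele minus the SPRET/EiJ allele was -0.439 in kidney, -0.133 in liver, -0.10 in lung and 0.110 in spleen. In spleen the C57BL/6J allele had 0.455 in both libraries, and the SPRET/EiJ allele 0.222 (11 reads) and 0.467 (22 reads). In lung the values were 0.6 and 0.2 against 0.5 and 0.5. The libraries of spleen and of lung thus differed in sign, and their direction is not settled. The allelic difference was -0.288 with DMSO and -0.788 in heart, each with at most 3 reads in 1 of the libraries. The 60-bp and 119-bp exons of Dnmt3b were included more on the C57BL/6J allele in ESC, by 0.066 and 0.105 (adjusted p = 0.861 for both), neither past the threshold. In liver the C57BL/6J allele minus the SPRET/EiJ allele was -0.160 at the 60-bp exon and 0.084 at the 119-bp exon. At the 119-bp exon it was -0.034 in spleen, and none of these was called. In Mbd1, the 129-bp exon with the other downstream exon in cortex had 0.641 and 0.624 on the C57BL/6J allele and 0.507 and 0.479 on SPRET/EiJ, a difference of 0.140 that was not called (adjusted p = 0.148).

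In fibroblasts, 0 of 19 member events were called between alleles with DMSO and 1 of 19 with pladienolide B, where 2.83% and 2.23% of all events were called. With DMSO, 0 of them had an unadjusted p under 0.05. The call was again the 115-bp exon of Mbd1. With DMSO the C57BL/6J allele had 0.915 and 0.931 and the SPRET/EiJ allele 0.952 and 0.950. After pladienolide B the C57BL/6J allele had 0.436 and 0.415 (26 and 36 reads), while the SPRET/EiJ allele had 0.866 and 0.823 (62 and 101 reads).

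The allelic difference with the drug was -0.419 (adjusted p = 0.0412, and 0.0196 with the library as a block and a spread taken from all events). It was lost with a prior without depth trend (0.0786) and with a stricter rule for that prior (0.0617). Whether it differed from that with DMSO was tested by the interaction of allele and treatment. This gave a difference of -0.391 with an unadjusted p of 0.0197 and an adjusted p of 0.987. Of all 13352 events, 0.00749% were called in that test, and 0 of the 6 member events. A change of the allelic difference by the drug was therefore not shown at this depth.

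**Figure D5:**
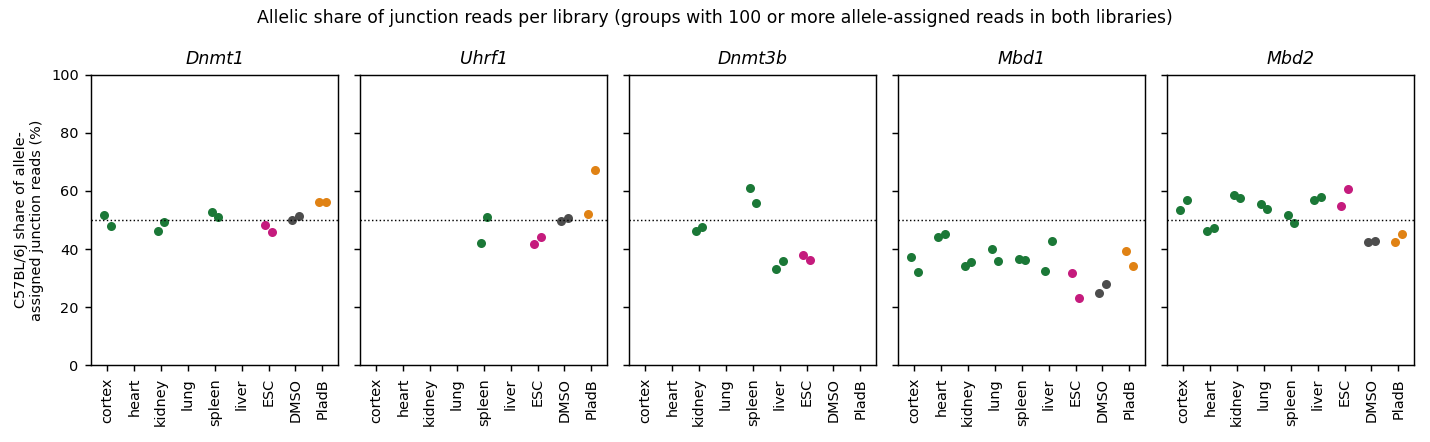
Share of allele-assigned junction reads from the C57BL/6J allele, in percent, for 5 genes; each point is 1 library and the dotted line is 50%. Mbd1 lies between 23.3% and 45.1% in all 18 libraries, whereas Dnmt1 stays between 45.8% and 56.2%.

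Reads over the junctions of these events also give the share of each allele, a description of allelic expression that depends on which junctions carry sequence differences. Reads were summed over the events of a gene, so a read over a junction that several events share was counted more than once. The median of all autosomal genes was 50% to 50.7% from the C57BL/6J allele. Mbd1 was below 50% in all 9 groups, from 44.2% and 45.1% in heart to 31.9% and 23.3% in ESC and 24.8% and 28.1% in DMSO fibroblasts. Its summed count was at least 301 per library. Single Mbd1 events went both ways, so the share depends on which events were listed. In spleen, an event had 284 and 276 reads from C57BL/6J and 75 and 86 from SPRET/EiJ. Another event in spleen, that of the 115-bp exon, had 255 and 383 against 681 and 789.

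Dnmt3b varied between tissues, with 37.9% and 36.3% in ESC and 33.2% and 35.9% in liver but 61.1% and 55.9% in spleen and 46.2% and 47.5% in kidney. Uhrf1 had 41.6% and 44.2% in ESC and 49.6% and 50.8% with DMSO. Mbd2 was above 50% in kidney (58.7% and 57.4%) and liver (57% and 57.9%) and below it with DMSO (42.3% and 42.9%), without overlap. No test was made on these shares.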

How the data were processed

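Reads had been mapped by the authors to mm10 and to a SPRET/EiJ genome (HISAT2 2.0.1), assigned to alleles, and counted over junctions with rMATS on Ensembl annotation. The deposited junction counts are raw, with both replicates of a group in 1 list. The effective lengths of both forms are deposited as scores from rMATS. Heart, kidney and cortex reads were trimmed to the length of the others, and liver came from an earlier study. The authors made the deposited TPM values with featureCounts from all reads. Columns of the authors' own comparisons (FDR and inclusion level differences) were not used. The liver labels carry other strain names, and these libraries were used as the study describes them. The order of replicates within the lists was taken as that of the labels: replicate differences in junction reads and TPM correlated with r between 0.631 and 0.969 over genes.

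PSI was computed from counts and effective lengths. Events with 20 or more reads in each library (and allele) were fitted with a quasi-binomial logistic model, with a dispersion of at least 1 moderated by squeezeVar of limma 3.58.1 (R 4.3.3) towards a prior that follows depth, an F test and Benjamini-Hochberg adjustment over all autosomal events. Allelic events also needed a PSI within 0.1 of that from total reads. Expression was tested with limma on log2(TPM + 0.1) over autosomal genes with a TPM of at least 1 in 2 libraries, all 14 tissue libraries sharing 1 spread, and the 4 fibroblast libraries another. The rMATS test of the study was replaced by the model above.

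Events entered the prior with 2 or more fitted reads of the rarer form in every library. A first rule (10 or more reads of each form in all) was replaced. Both had been fitted to these data and their numbers of calls seen before simulated data decided between them. With the library as a block, the first rule recovered between 0% and 20% of 200 events changed by 0.25 PSI. Without the block it recovered between 26.5% and 72%, much as the rule used here. The simulated overdispersion was then changed from a fixed value to that of each event, because the fixed value recovered none between treatments. The final model recovered between 27% (alleles in ESC, 30958 events) and 70% (alleles in kidney, 24320 events), with up to 11.7% false calls (ESC against spleen). For TPM, 87.5% of 200 genes changed by 1.5 on the log2 scale were recovered between tissues and 97.5% between treatments.

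The 2 alleles of a library share their source (correlation of replicate deviations between 0.022 and 0.536), and values with the library as a block are printed where they change a call.

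The 10 genes, the further lists and the events were chosen with earlier results of these data known. The exons named are those called and, per gene, up to 5 with the widest range of group means, told by the event with most reads. The alternatives were another pseudocount, no filter, quantile normalisation, other priors, a minimum of 50 reads, no agreement filter, a replicate block and each replicate left out. A lone replicate is then assumed to vary like the other groups.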

Additional observations from a re-analysis of the deposited data

How the results depend on the processing

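An alternative value for a single gene or exon counted as the same if it kept its direction and its side of the threshold. Allelic differences without 1 replicate were not tested, so only their direction counted. Of 377 alternative values, 345 were the same, 18 kept the direction but lost the call, 10 gained one and 4 changed sign. The 4 were Dnmt3a in ESC against the organ mean, at -0.32 after quantile normalisation and between -0.18 and 0.28 over replicates left out (-0.18 without the first ESC replicate), and Tet2 (0.96) and Tet3 (0.78) between treatments after quantile normalisation. Counts of called members stayed within 1.5 times in 172 of 187 alternatives.

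The 2 events called in ESC against the organs became 1 with at least 50 reads, and 1 to 7 when each replicate was left out in turn: 7 without the first ESC clone, 5 without the second, and 1 without the second cortex or the second spleen replicate. Without the first clone, ΔPSI of the Dnmt3b 60-bp exon was 0.525 against kidney and 0.235 against liver. That of the 115-bp exon was -0.353 against liver. These values rest on 1 ESC library. The 2 events called between treatments became 1 with a prior without depth trend, with at least 50 reads, with a replicate block and with the first rule for the prior, and ranged from 1 to 2 over replicates left out. The 1 event called between alleles in tissues became 2 with a replicate block, and the 1 in fibroblasts became 0 without depth trend, with at least 50 reads and with the first rule. The interaction gave 0 throughout. The cause of these changes was not tested. A minimum of 50 reads and a left-out replicate leave fewer data, and without 1 ESC clone the fit holds no spread between the clones.

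Over all events, the replicate block raised the calls between alleles in ESC from 77 to 583 and those against kidney from 346 to 641, lung from 397 to 674 and liver from 229 to 590. With the first rule for the prior these 3 were 555, 667 and 444, spleen had 701 in place of 446, and the alleles in spleen and DMSO had 283 and 491 in place of 451 and 738. Calls of alleles with a block also rose in heart (371 to 581), kidney (496 to 770) and lung (447 to 712), and fell without depth trend in liver (207 to 130). For treatments they went from 4734 to 3084 with at least 50 reads, and for the interaction from 1 to 11 with the block, 5 with the first rule and 2 to 4 over replicates left out. Without 1 ESC clone, 1001 to 2695 events were called per organ, and without the first liver replicate 121 against liver, without the second heart replicate 562 against heart, and without the second spleen replicate 275 against spleen. The first rule for the prior was added as an alternative after the data had been seen.

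The organs share 2 animals, and replicate deviations of TPM correlated between 0.028 and 0.187 over the 15 pairs of organs, all positive and some under 0.1. In the comparisons made here, the replicate number paired no samples: deviations correlated between -0.036 and 0.031 for ESC with organs and at -0.002 for the treatments in TPM, and between -0.092 and 0.046 and at 0.005 in PSI. As a block, the number changed no call of a member other than those given here. The alleles without 1 replicate leave no residual degrees of freedom and were not tested. Some exons had too few reads for a test at 50 reads.

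Precision is limited by 2 libraries per group, by the distance between the ESC clones and by depth outside ESC. Differences smaller than these allow are not detectable. Liver came from an earlier study, so that its preparation and its tissue cannot be told apart.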

Other observations

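Imprinted genes, whose single-parent expression is known to rest on DNA methylation, were looked at after the data had been seen, as a check of the allelic labels. C57BL/6J was the mother of these hybrids. Of 11 such genes, those with at least 100 allele-assigned junction reads in both libraries of a group were kept. In DMSO fibroblasts, Mest, Impact and Igf2, known as paternally expressed, had between 0% and 1.31% of reads from the C57BL/6J allele, and Meg3, Grb10 and Igf2r, known as maternally expressed, between 99.3% and 99.9%. In heart, Snrpn had 0% and 0.028% and Meg3 99.4% and 100% in the 2 libraries. In ESC all 8 genes with enough reads had reads from both alleles, between 29.5% and 74.5% from C57BL/6J. Snrpn had 49.5% and 50.7% in the ESC clones, from 4348 and 5560 C57BL/6J reads, against 0.0664% and 0.0576% in cortex. Peg3 had 74.5% and 72.9% in ESC against 0.374% and 0.354% in cortex. Meg3 had 34.9% and 34.2% in ESC and 99% and 98.9% in cortex. With 1 direction of the cross, parent and strain cannot be told apart. No test was made, and methylation itself was not measured in these files.

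There were exceptions among the organs. Impact had between 12.9% and 41.4% from the C57BL/6J allele in the 5 organs with enough reads. In cortex, Grb10 had 3.92% and 4.6%, whereas it had 99.3% and 99.4% in heart, and Igf2r had 54.4% and 58.1% in cortex and 98.5% and 97.8% in heart. Both genes are known to be expressed from another parental allele, or from both, in neurons.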
